A study of Gossypium barbadense with 4 samples.

Results

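The genes described here encode proteins that bind, splice, unwind or degrade RNA, measured in anthers and ovules of Pima cotton (Gossypium barbadense). They were chosen by name among the sequences that the study describes, which it had called changed between the genotypes in one tissue or the other. A probe set, the group of short probes that reads 1 transcript or a set of similar transcripts on the array, was taken when the study's description of its GenBank sequence held RNA-binding, RNA binding, splicing, ribonucleoprotein, RNA helicase, poly(A) or CCR4, and did not hold ribosomal protein. These words fitted 26 accessions, of which 19 could be tied to probe sets, giving 20 probe sets of the 24029 on the array that are no controls. The other 7 accessions, all from the ovule list, remained without a probe set and have no value here. The ovule table that pairs accessions with probe sets was used in part only, so nothing follows about their presence on the array. They include the DEAD-box helicases 37 (DT557981) and 8 (DT565455) and a further SR1B sequence (DT569469).

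Semigametic 57-4, a natural mutant of the cultivar Pima S-1 held as a single line, was compared with non-semigametic Pima S-1, its isogenic parent. In semigamy the sperm nucleus enters the egg but does not fuse with the egg nucleus. Anthers and ovules were taken at 0 days post-anthesis (DPA), the day of flowering, from field-grown plants. Each of the 4 arrays received RNA pooled from 3 field replicates of 10 flowers, so that each genotype and tissue has 1 array and no replicate error, and no test within a tissue was possible.

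An mRNA is spliced in the nucleus, where SR proteins and small nuclear ribonucleoproteins such as the U2 particle mark and join the exons. It is exported with a poly(A) tail that poly(A)-binding proteins coat, which favours translation and protects the message. Shortening of that tail by the CCR4-NOT complex, whose CAF1 subunit is a deadenylase, is usually the rate-limiting step of mRNA decay. Pollen stores many mRNAs for use after germination, and ovules at flowering hold both the embryo sac and the outer cells from which fibres grow.

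Levels are MAS5 signals, intensities on a linear scale that were scaled to the same trimmed mean of 250.1 on every array. Log2 ratios were taken of the 57-4 signal over the Pima S-1 signal within a tissue after signals under 50 were set to 50. Ratios of at least 2-fold were counted. A fold whose dimmer signal fell short of 50 is a bound, written as at least so many fold. The tissues are mixtures of cells, so fewer cells of a type and less RNA per cell cannot be told apart.

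The array labels of the ovules need a word before the values. The study's own ovule table heads its signal columns the other way round from the labels of the deposited arrays, while the direction of change it lists follows the labels. The labels were used here, and every ovule ratio below would take the opposite sign with the 2 ovule arrays exchanged. The 57-4 arrays also had higher 3'/5' ratios of the control transcripts, a sign of shorter RNA or cDNA, at 11.7 to 21.1 against 4.18 to 11.8 in Pima S-1, higher in all 6 comparisons. The spiked hybridization controls were brighter in 57-4, by median log2 ratios over 9 probe sets of 0.47 (anthers) and 0.40 (ovules). Both move with the genotype, and their part in the ratios below was not tested. No described probe set held an anther or pollen word, so the anther label could not be checked in this way. Of 19 measured probe sets with ovule, fibre, seed or embryo words 9 were higher in ovules in both genotypes and 5 were higher in anthers. The summed signal of all 21 such probe sets was 28908.1 and 42629 in ovules of 57-4 and Pima S-1 against 23838.3 and 20535.4 in anthers. The sum rests largely on the fibre protein Fb9, at 13554.8 and 20078.8 in ovules, and the seed maturation protein PM37, at 6580.2 and 10690.2. In anthers Fb9 gave 9414.5 and 7510.8 and PM37 gave 6651.9 and 4767.2.

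The 4 CAF1-related deadenylase probe sets were all below Pima S-1 in anthers and included the 2 lowest anther ratios of the 20, while 3 of the 4 were above Pima S-1 in ovules. They share a description, CCR4 associated factor 1-related protein. All 4 are described through the study's anther list, and 3 of them through that list only. Their directions in the tissues are conditioned on that listing and are given as a description. The array's titles liken CA992847 and CA992935 to one Arabidopsis CCR4-NOT protein and CA992956 and CD485713 to another, and the latter pair share a transcript cluster, so the 4 probe sets may stand for fewer genes. CA992956 gave 518.5 in 57-4 anthers and 3481.2 in those of Pima S-1, a 6.71-fold lower signal (log2 ratio -2.75). This was the 8th lowest ratio of 15900 measured probe sets, and the bright Pima S-1 anther signal stood apart from the other 3 arrays. In ovules the same probe set gave 829.1 and 1105.8, a log2 ratio of -0.42.

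CA992847 gave 259.9 in 57-4 anthers and 781.2 in those of Pima S-1, for a log2 ratio of -1.59. In ovules its signals of 573.7 and 530.5 were close, at a log2 ratio of 0.11. CD485713 was dim and gave 24.6 in 57-4 anthers and 128.1 in those of Pima S-1, at least 2.56-fold lower. Its ovule signals ran the other way, 96.0 in 57-4 and 30.2 in Pima S-1, at least 1.92-fold higher. CA992935 had the same shape near the lower limit, with 45.9 against 92.6 in anthers (at least 1.85-fold lower) and 90.7 against 22.5 in ovules (at least 1.81-fold higher). Over the 4 deadenylase probe sets the median log2 ratio was thus -1.47 for anthers and 0.49 for ovules, and 3 of 4 were at least 2-fold lower in anthers. Beside this stand 2.71% of all probe sets and 12.7% of the 1375 described ones. Of the latter 1098 are described through the ovule list only, with 2.82% at least 2-fold lower in anthers. The share among anther-listed probe sets is therefore above 12.7% and was not taken. In ovules none of the 4 values passed 2-fold with the floor of 50, but those of CD485713 and CA992935, and the median with them, are bounds set by that floor. With no floor they were at log2 ratios of 1.67 and 2.01. The ovule value of CA992847 turned to -0.31 with scaling on the hybridization controls, while CD485713 and CA992935 stayed above 0 at 0.64 and 0.56.

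A 3'-5'-exoribonuclease-like sequence (DR463504), named for an enzyme class that degrades RNA from its 3' end, is read by a pair of probe sets. The one for a single transcript gave 174.0 and 144.8 in anthers of 57-4 and Pima S-1 and 65.4 and 98.4 in ovules. The one shared by similar transcripts gave 624.5 and 814.8 in anthers and 375.8 and 510.7 in ovules. None of these differences reached 2-fold, the log2 ratios being 0.27 and -0.38 in anthers and -0.59 and -0.44 in ovules.

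**Figure D1:**
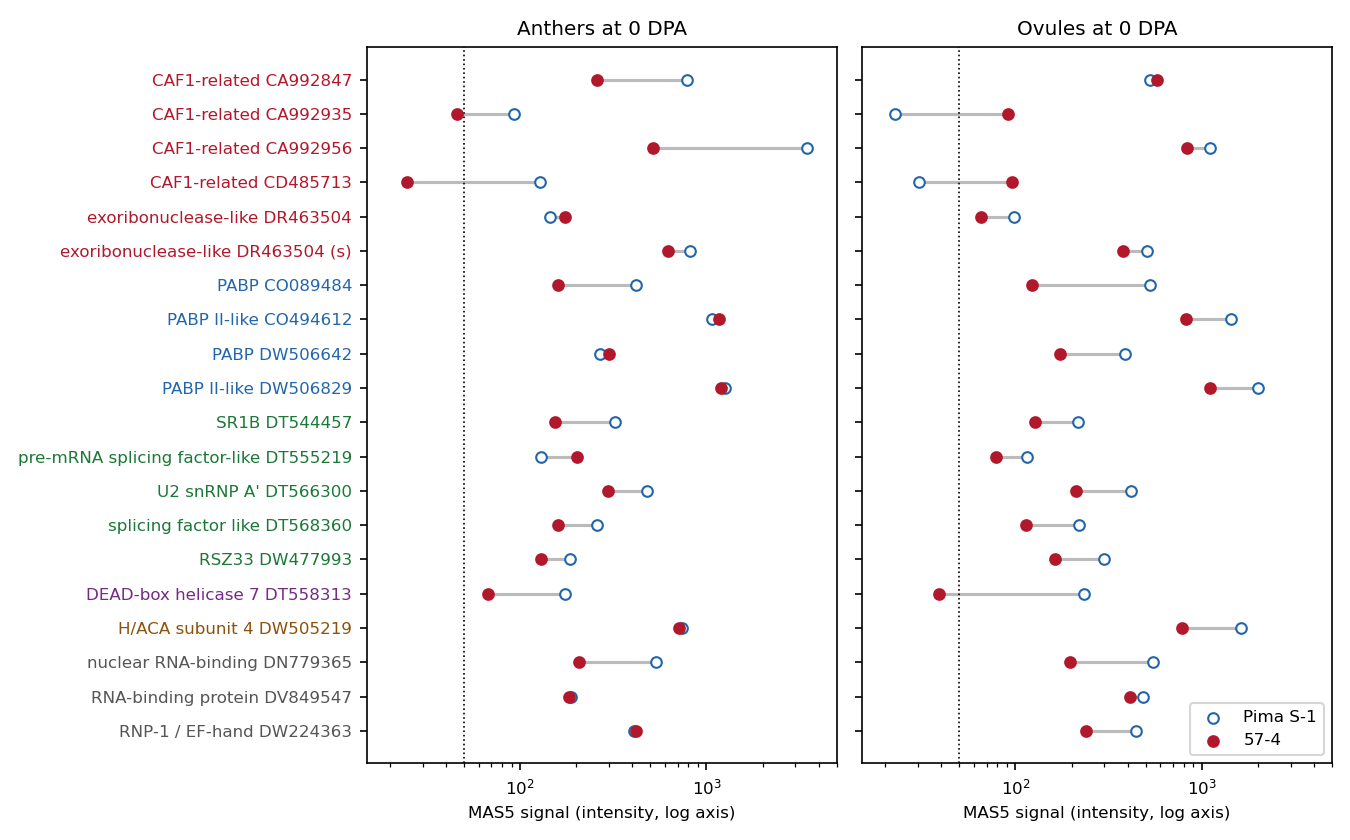
MAS5 signal (intensity, log axis) of each of the 20 probe sets in anthers (left) and ovules (right), with filled points for 57-4, open points for Pima S-1, 1 array each, and a dotted line at the floor of 50. Label colours mark roles: red for mRNA decay, blue for poly(A)-binding, green for splicing, purple for the helicase, brown for the H/ACA particle and grey for other RNA-binding proteins. The widest anther gap is that of CA992956, 518.5 against 3481.2, and in ovules the filled point lies left of the open one in 17 of 20.

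The 4 poly(A)-binding probe sets had a median log2 ratio of -1.01 in ovules and 0.03 in anthers. All 4 ovule ratios were below 0, as were 83.8% of those of all described probe sets. CO089484, titled after Arabidopsis PAB8, one of the cytoplasmic proteins that coat the tail and aid translation initiation, gave 158.9 in 57-4 anthers and 416.9 in those of Pima S-1 (log2 ratio -1.39). Its ovule signals were 123.1 and 527.8 (log2 ratio -2.10), a 4.29-fold lower signal and the 39th lowest ovule ratio of 14707. Of the 4 it alone was past 2-fold in both tissues.

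DW506642, also described as a poly(A)-binding protein, gave 300.2 and 266.6 in anthers and 172.5 and 387.0 in ovules of 57-4 and Pima S-1. Its ratio passed 2-fold in ovules only, at a log2 ratio of -1.17 against 0.17 in anthers. The type II proteins, which bind the growing tail in the nucleus, were bright on every array. CO494612 gave 1160.6 and 1066.8 in anthers and 824.5 and 1427.9 in ovules, log2 ratios of 0.12 and -0.79. DW506829 gave 1200.5 and 1251.5 in anthers and 1109.3 and 2014.1 in ovules, log2 ratios of -0.06 and -0.86. In both, the Pima S-1 ovule array was the highest of the 4 and the anther arrays were close together.

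The 5 splicing probe sets had ovule log2 ratios from -0.98 to -0.54, with a median of -0.87. All 5 were below 0, beside 83.8% of the described probe sets, and none reached 2-fold, though U2 A' (-1.04) and DT568360 (-1.01) did when the ratios were centred on their median. SR1B (DT544457), an SR protein of the kind that marks exons for the spliceosome, gave 154.6 in 57-4 anthers and 322.2 in those of Pima S-1, which at a log2 ratio of -1.06 was the only splicing ratio past 2-fold, and at -0.95 no longer was with quantile normalization. Its ovule signals were 128.0 and 217.0 (log2 ratio -0.76). RSZ33 (DW477993), a plant-specific SR protein with zinc knuckles, gave 129.9 and 184.5 in anthers (log2 ratio -0.51) and 163.2 and 298.2 in ovules (log2 ratio -0.87). The U2 small nuclear ribonucleoprotein A' (DT566300), a core protein of the particle that pairs with the intron branch site, gave 295.0 and 478.2 in anthers and 211.6 and 416.8 in ovules. Its log2 ratios were -0.70 and -0.98.

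A sequence described only as splicing factor like (DT568360) gave 159.4 and 258.5 in anthers and 113.9 and 219.5 in ovules, log2 ratios of -0.70 and -0.95. The pre-mRNA splicing factor-like sequence (DT555219) departed from the others. It gave 201.9 in 57-4 anthers against 129.9 in those of Pima S-1, a log2 ratio of 0.64 and the highest anther ratio of the 20, and 79.0 against 114.8 in ovules, a log2 ratio of -0.54.

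The 1 RNA helicase among the members had a ratio past 2-fold, lower in 57-4, in each tissue. DEAD-box ATP-dependent RNA helicase 7 (DT558313) is titled after Arabidopsis PRH75, an enzyme that uses ATP to unwind RNA. It gave 66.9 in 57-4 anthers and 174.7 in those of Pima S-1 (log2 ratio -1.38). For ovules the signals were 39.0 and 232.7, at least 4.65-fold lower, which was the 25th lowest of 14707 ovule ratios and the lowest of the 20. The H/ACA ribonucleoprotein complex subunit 4 (DW505219), the enzyme that converts uridine to pseudouridine in ribosomal and other RNAs, differed in ovules, with 785.7 in 57-4 and 1616.7 in Pima S-1 (log2 ratio -1.04). In anthers its signals were 709.4 and 739.0 (log2 ratio -0.06). Pima S-1 ovules were thus the high array and the other 3 lay close together.

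Among the 3 remaining RNA-binding proteins, 1 was low in both tissues. The nuclear-localized RNA binding protein (DN779365), titled after Arabidopsis RGGA, gave 206.1 and 533.4 in anthers and 195.3 and 546.9 in ovules. Its log2 ratios of -1.37 and -1.49 were the most alike of the probe sets past 2-fold in both tissues, and within a genotype the anther and ovule signals were close. An RNA-binding protein titled after the Arabidopsis chloroplast protein CP33 (DV849547) gave 182.9 and 186.3 in anthers and 410.1 and 483.2 in ovules, log2 ratios of -0.03 and -0.24. The protein with an RNP-1 RNA recognition motif and an EF-hand, a calcium-binding motif (DW224363), gave 419.5 and 409.7 in anthers and 240.1 and 442.5 in ovules, log2 ratios of 0.03 and -0.88.

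**Figure D2:**
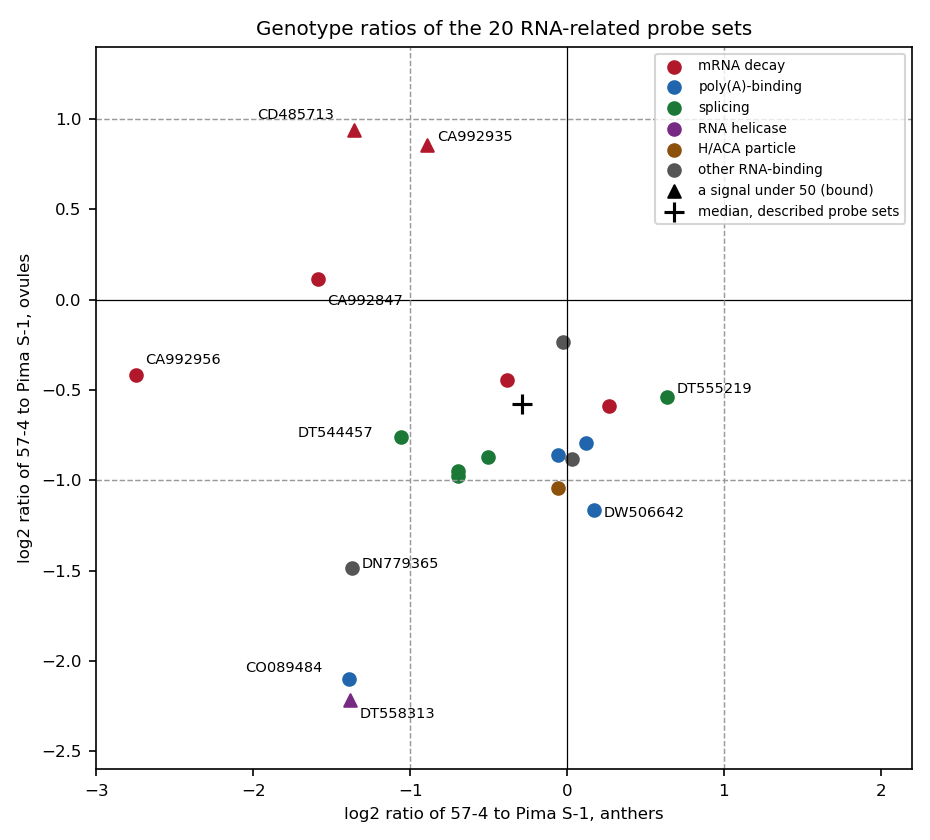
Log2 ratio of 57-4 to Pima S-1 in anthers (x axis) against the ratio in ovules (y axis) for the 20 probe sets, coloured by role, with triangles where a signal under 50 makes a ratio a bound, dashed lines at 2-fold and a cross at the median of all described probe sets. The red CAF1-related points lie left of the anther 2-fold line or near it with ovule ratios from -0.42 to 0.94, and CO089484, DT558313 and DN779365 lie past 2-fold in both.

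Over all members, 7 of 20 were at least 2-fold lower in 57-4 anthers and 0 were higher, with a median log2 ratio of -0.60 and a range from -2.75 to 0.64. Below 0 were 75.0% of the members and 72.1% of the described probe sets. The background was 2.71% lower and 1.59% higher over all measured probe sets, whose median was 0.00, and 12.7% lower and 3.49% higher over the described ones, whose median was -0.29. Descriptions exist only for probe sets that the study had called changed in one tissue or the other, so these counts are not independent evidence of a direction, and the described probe sets are the closer yardstick. Without the 4 CAF1-related probe sets 4 of 16 were at least 2-fold lower and the median was -0.22.

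In ovules 5 of 20 were at least 2-fold lower and 0 were higher, with a median of -0.83 and a range from -2.22 to 0.94. The background was 4.14% lower and 4.46% higher over all probe sets, with a median of 0.06, and 12.2% lower and 6.17% higher over the described ones, with a median of -0.58. Below 0 were 85.0% of the members, near the 83.8% of the described probe sets, against 44.2% of all probe sets. The 3 members above 0 were all CAF1-related and are the only members described through the anther list alone. Of the 178 probe sets described in that way, 90 were above 0 in ovules. In both tissues 3 of 20 were at least 2-fold lower, CO089484, DT558313 and DN779365, beside 0.514% of all probe sets and 2.6% of the described ones.

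A description through one list only means that the study did not list that sequence for the other tissue, so the ratios there are conditioned on that and are given as a description. It does not hold for the gene, as CD485713 is on the anther list only while CA992956 of the same cluster is on both. Of the 13 members described through the ovule list only, 1 (SR1B) had an anther ratio past 2-fold, toward lower, and none toward higher, beside 2.82% and 0.82% of the 1098 probe sets described in the same way. Their median anther ratio was -0.06, beside -0.21. The 3 described through the anther list only, all CAF1-related, were above 0 in ovules, 2 of them as bounds, and with the floor none was counted as past 2-fold, beside 2.25% lower and 6.74% higher of the 178 described in that way.

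The array holds 6 other probe sets in 5 of the transcript clusters to which members belong, none of them on the study's lists as far as those were used here, and these were looked at after the members' values had been seen. The partner of the type II poly(A)-binding protein CO494612 gave 841.8 and 907.8 in anthers and 522.1 and 1076.0 in ovules, log2 ratios of -0.11 and -1.04. Those of the member were 0.12 and -0.79, near in size but of the other sign in anthers. The partner of U2 A' gave 2438.0 and 2366.8 in anthers and 2504.9 and 1904.1 in ovules, log2 ratios of 0.04 and 0.40, opposite in sign to the member in both tissues. That of DN779365 had log2 ratios of -0.29 and 0.86, and that of CA992935 had 0.21 and 0.12, so that neither followed its member. In the cluster of CA992956 and CD485713, one further probe set gave 48.5 and 107.8 in anthers, at least 2.16-fold lower, with both ovule signals under 50, and the other was under 50 on all 4 arrays. For the 11 members of shared design, which can bind several similar transcripts, the signals do not say which transcript they come from.

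Genes with other RNA words were also examined, among them further sequences titled RNA helicase. They comprised 19 probe sets, all from the ovule list, chosen by spliceosome, maturase, exosome, RNA recognition and like words in descriptions or titles. In anthers none of the 17 measured was past 2-fold in either direction, beside 2.71% lower and 1.59% higher of all probe sets, with a median log2 ratio of -0.19. In ovules 2 of 18 were at least 2-fold lower and none higher, with a median of -0.49 and 16 below 0. Past 2-fold were a maturase K sequence (DW515041), named for the chloroplast intron-splicing factor, at 108.8 against 245.9 (log2 ratio -1.18), and DT550588 at 159.0 against 323.8 (log2 ratio -1.03). The maturase K sequences DR452552 and AI728943 were brighter and short of 2-fold in ovules, at -0.63 and -0.65. A further one, DN760777, was under 50 on both ovule arrays. The study describes DT550588 as an arabinogalactan protein, while its cluster title names RNA binding.

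Anthers were then compared with ovules, with limma over all 4 arrays and genotype as a block. The choice of members did not use the mean tissue difference. The fit leaves 1 residual degree of freedom and 2 arrays a tissue. A probe set's own spread is how far its tissue difference departs between the genotypes. In eBayes that spread is moved toward a prior from all probe sets tested, with 6.67 degrees of freedom. The SE and p below rest largely on this prior. Listing for a genotype change in one tissue can widen the departure between the genotypes, so the members' share of calls is not independent of their choice. Of 14484 probe sets tested, 10.4% were higher in anthers and 8.88% in ovules after Benjamini-Hochberg adjustment. Among the 20 members 1 was higher in anthers and 1 in ovules, and 4 passed an unadjusted p of 0.05, beside 35.5% of all probe sets. The CP33-titled protein (DV849547) was higher in ovules, at 410.1 and 483.2 against 182.9 and 186.3 in anthers. Its limma log2 difference of anthers minus ovules was -1.27 (SE 0.25, adjusted p = 0.014), with adjusted p from 0.0049 to 0.039 over the alternatives. The shared probe set of the exoribonuclease-like sequence was higher in anthers by 0.70 on the log2 scale (SE 0.19, adjusted p = 0.036 in limma). That call was lost with quantile normalization (adjusted p = 0.054) and without the genotype block (adjusted p = 0.13), and the adjusted p was 0.014 to 0.033 in the other alternatives. Its partner probe set, at 0.98 (SE 0.37), and the H/ACA subunit, at -0.64 (SE 0.24), did not pass in limma, with adjusted p of 0.099 and 0.10.

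In both genotypes 6 members were higher in anthers and 3 higher in ovules, and the other 11, or 55.0%, had opposite signs, beside 24.7% of all probe sets. Members were listed for a genotype change in one tissue or the other, which bears on such signs, so the share is a description. It was not taken over the described probe sets. All 4 CAF1-related probe sets were higher in anthers than ovules in Pima S-1, at log2 ratios of 0.56 for CA992847, 0.89 for CA992935, 1.65 for CA992956 and 1.36 for CD485713. In 57-4 the same probe sets were higher in ovules, at -1.14, -0.86, -0.68 and -0.94 in that order. The values of CA992935 and CD485713 are bounds in both genotypes. The 4 poly(A)-binding probe sets ran the other way, from -0.69 to -0.34 in Pima S-1 and from 0.11 to 0.80 in 57-4. These are the 4 signals of each probe set seen across tissues instead of genotypes and add no further measurement. No difference between the genotypes in these tissue ratios could be tested. Over all probe sets of Pima S-1, 12.7% differed by 2-fold or more toward anthers and 8.6% toward ovules, and in 57-4 7.96% and 7.26%, beside 2 and 2 of the 20 members in each genotype. In both genotypes at once it was 5.08% and 5.22%, beside 0 members in anthers and 1 in ovules, DV849547.

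**Figure D3:**
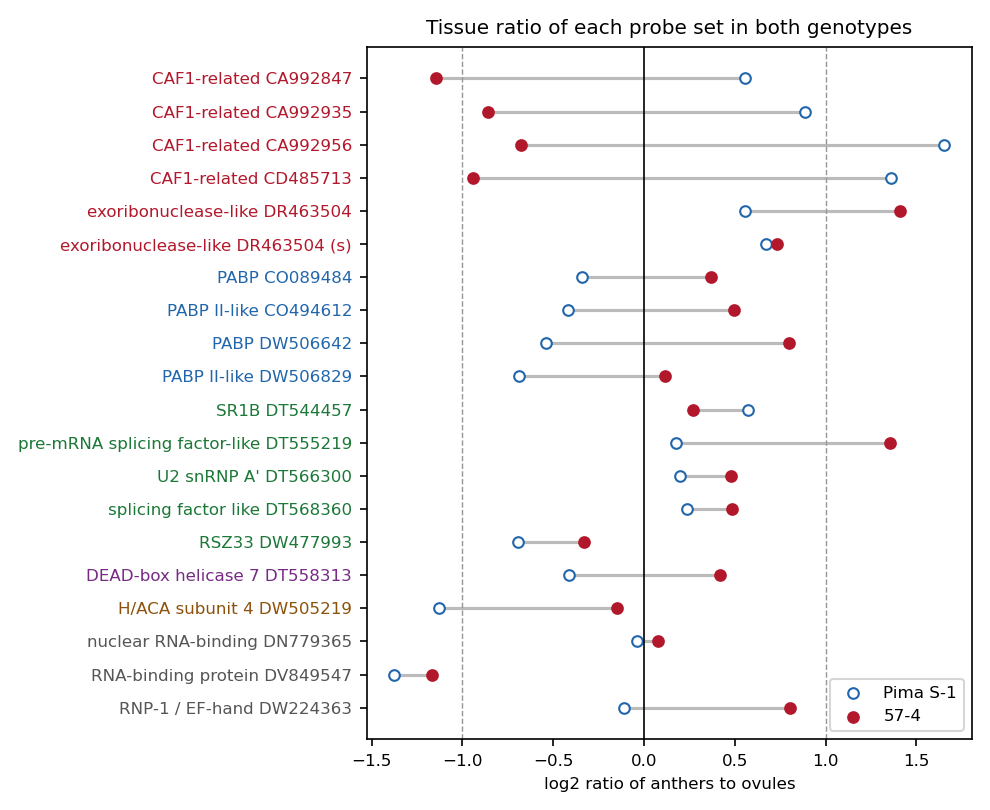
Log2 ratio of anthers to ovules for each of the 20 probe sets, with filled points for 57-4 and open points for Pima S-1, 1 ratio of 2 arrays each, dashed lines at 2-fold and label colours by role as in the plot of signals. The open points of the 4 CAF1-related probe sets lie between 0.56 and 1.65 and the filled ones between -1.14 and -0.68, while DV849547 lies below -1 in both genotypes. Both points of CA992935 and of CD485713 are bounds.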

How the data were processed

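The deposited values are intensities, MAS5 signals computed by the authors from the Affymetrix GeneChip Cotton Genome Array (software version not given in the sources used here). RNA of the 3 field replicates was pooled before hybridization, so that there are 4 arrays, 1 for each genotype and tissue, and their number limits the precision. Of 24132 probe sets 103 controls were left out. Signals under 50 were set to 50, log2 ratios were formed within a tissue, and a log2 ratio of at least 1 in either direction was counted. A probe set was measured in a comparison when a signal reached 50. For tissue, lmFit and eBayes with trend (limma 3.58.1, R 4.3.3) were fitted to probe sets with 50 or more on 2 or more arrays. The other steps used Python 3.11.15. Counting and fit were tried on simulated data, whose results are not given here. The simulated tissue changes were larger than those of the members called by limma. For counting, changes were planted only in probe sets well above the floor. Small differences and dim probe sets were therefore not covered.

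Names came from the study's supplementary lists, which describe 1439 of the 1659 probe sets in its 2 tables of signals. The ovule table was held in part, and none of the log ratios or p-values of those lists was used. Every member is named, and of the other RNA-related genes those past 2-fold and the further maturase K sequences. An RNA word list over the whole array was not made, since no annotation of all probe sets was used, and no sequences are shown. The members, word lists and tests were chosen with earlier results of these data known. Alternatives changed the floor (none or 100), the scaling (centring on the median, quantile normalization or the hybridization controls), the probe sets (single-transcript designs only) and the log2 threshold (1.5), and for limma also no filter and no genotype block.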

Additional observations from a re-analysis of the deposited data

Results flagged for a closer look

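In 8 members the ratio of 57-4 to Pima S-1 had opposite signs in anthers and ovules. That is 40.0% of the 20, beside 39.7% of all probe sets and 27.5% of the described ones. The difference was not tested, since each condition has 1 array. The log2 ratio in ovules minus that in anthers was positive in 3, all CAF1-related deadenylases, at 2.30 for CD485713, 1.75 for CA992935 and 1.70 for CA992847. The first and second of these rest on signals under 50 and are bounds. It was negative in the other 5, which were above 0 in anthers and below 0 in ovules. These 5 are described through the ovule list only, and the 3 CAF1-related ones through the anther list only. The poly(A)-binding proteins DW506642 and CO494612 gave -1.34 and -0.91, the pre-mRNA splicing factor-like sequence DT555219 gave -1.18, the RNP-1 and EF-hand protein DW224363 gave -0.92, and the single-transcript probe set of the exoribonuclease-like sequence DR463504 gave -0.85. With scaling on the hybridization controls CA992847 was below 0 in both tissues, and so were DW506642, CO494612, DW224363 and DR463504. Among partner probe sets of the same clusters, that of CO494612 was below 0 in both tissues and that of CA992935 above 0 in both.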

How the results depend on the processing

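With the settings tried, the 12 single ratios counted as at least 2-fold lower stayed below 0 in each, and 12 stayed past 2-fold with no floor, centring or hybridization-control scaling. With a floor of 100, 10 stayed, as the anther ratios of CD485713 (-0.36) and DT558313 (-0.80) no longer reached 2-fold, and with quantile normalization 10 stayed, as DT544457 in anthers (-0.95) and DW505219 in ovules (-0.97) did not. Centring took the ovule count from 5 to 7, adding DT566300 and DT568360, beside 715 of all 14707 probe sets. Scaling on the hybridization controls moved the median of all measured probe sets to -0.43 in anthers and -0.35 in ovules, against which its values are to be read. It gave 10 members at least 2-fold lower in anthers, 13 in ovules and 6 in both tissues, and medians of -1.07 in anthers and -1.25 in ovules. Over all probe sets 1843 of 16350 were at least 2-fold lower in anthers and 1682 of 13913 in ovules with that scaling. The 8 single-transcript probe sets held 2 at least 2-fold lower in anthers, 2 in ovules and 1 in both, with medians of -0.38 and -0.72. Of all probe sets of that design 183 of 7908 were lower in anthers and 272 of 7167 in ovules. A log2 threshold of 1.5 left 2, 2 and 0, beside 76 of 15900 probe sets in anthers and 168 of 14707 in ovules. The anther median was -0.38 with a floor of 100 and -0.48 with quantile normalization. No floor gave 2 members at least 2-fold higher in ovules, CA992935 (2.01) and CD485713 (1.67), both from signals under 50. Over all probe sets it gave 5443 of 24029 higher in ovules. In limma 0 members were higher in anthers with quantile normalization, and 0 without the genotype block, with 2 and 3 members at an unadjusted p under 0.05. No paired analysis was possible because the replicates were pooled and the labels carry no replicate numbers. Leaving out an array leaves no residual degree of freedom.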
